A study of Rattus norvegicus with 2 samples.

Results

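The probes described here carry the accession of a single sequence record in the public nucleotide archives as their only name. They were taken from the non-coding section of a rat microarray by the form of their names: a probe name that ends in _P and a number without starting in A_ or CUST_, and a target name made of 2 capital letters other than BC with 6 digits, or of 1 capital letter with 5 digits. This gave 1364 of 24684 non-control probes, for 1364 different accessions, each with 1 probe printed as 3 spots on every array. The values measured played no part in the choice.

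The RNA came from neural stem cells of the newborn rat hippocampus (Sprague-Dawley, postnatal day 3, passage 3), the dividing precursors of neurons and glia. One culture condition was 2.4% sevoflurane, an inhaled general anaesthetic, and the other, the control, was 0% sevoflurane. Both were kept under gas for 6 h and then for 24 h in a normal incubator with 5% CO2, although some labels name the first of these times alone, and the time of harvest is therefore not certain. There was 1 single-colour (Cy3) array per condition, and the labels do not say how many cultures each array stands for. No difference below therefore has a replicate check, a test or a p-value. The scan days of the arrays also differ, and cannot be told apart from the treatment.

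Long non-coding RNAs are transcripts that are not translated into protein. Those that have been studied act in varied ways, for example by binding chromatin-modifying complexes, by pairing with other RNAs or by being transcribed across a neighbouring gene, and many are made in only a few cell types, often at low levels, with the brain among the tissues that make many of them. A record in the archives is what a laboratory submitted, a clone or a stretch of sequence, and unlike a curated reference transcript it may be a fragment, an unspliced copy or a repeat. Accession numbers are handed out in order of submission, so neighbouring numbers often come from the same submission.

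That these transcripts are non-coding rests on the section of the array alone. The files hold no gene name, description, coordinate or probe sequence for them, and 0 of the 1364 accessions occurred in the gene table of the current rat assembly (GRCr8). The members are therefore called by their accessions, no gene name or role is attached to any of them, and no sequence is shown.

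Most of these probes were dim. The median processed signal of a member, a fluorescence intensity already corrected for background, was 22.3 in treated cells and 6.82 in control cells. The middle range ran from 11.2 at the lower quartile to 60.7 at the upper quartile on the sevoflurane array, and from 2.02 to 40.2 on the control array. Negative control spots had a median of 2.33 (sevoflurane array) and 1.79 (control array). The lower quartile of the members on the control array lay close to this signal without a target, and that on the sevoflurane array lay above it. Even so, only 72.7% of members were called well above background on the sevoflurane array by the scanner software. Members near the lower quartile there could thus miss the call.

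The 2 arrays also differed as a whole in this respect. Over all usable probes the lower quartile was 16.4 in treated cells and 3.97 in control cells, while the upper quartile was 363 in treated cells and 692 in control cells. Dim probes were thus brighter and bright probes dimmer on the sevoflurane array. Signals were taken to log2, averaged over the usable spots of a probe and set relative to the upper quartile of their own array, and a difference is the sevoflurane level minus the control level in log2 units. The span of signals was narrower on the sevoflurane array, so upper-quartile scaling leaves dim probes higher there.

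Marker genes on the same arrays were read to check the labelled cell type. All 10 markers of neural stem and progenitor cells were well above background on both arrays, with summed signals of 36391 in treated cells and 54968 in control cells. Of these 10, Nes (1.27) and Msi1 (1.40) were at least 2-fold higher with sevoflurane, and Pax6 (-1.01) and Slc1a3 (-1.72, with 402 in treated cells and 2528 in control cells) at least 2-fold lower. In the other settings 0 to 3 were higher and 1 to 5 lower, the 5 with median scaling. All 6 red blood cell markers were higher with sevoflurane (summed signal 51166 on the sevoflurane array, 17737 on the control array), whereas 4 of 6 measured microglial markers (1168 and 11266 in the same order) and 4 of 6 measured neuronal markers (18509 and 83457) were at least 2-fold lower. The 3 measured endothelial and pericyte markers were higher, with a summed signal of 1045 in treated cells and 694 in control cells, as were 3 of 6 oligodendrocyte lineage markers (1433 and 1864), and of 5 astrocyte markers 2 were higher and 1 lower (204 and 949). No list was at 0, and Syt1, Itgam, Cx3cr1 and Pecam1 were not well above background on both arrays. Across the 7 other settings all 6 red blood cell markers stayed at least 2-fold higher, and 4 to 6 microglial and 3 to 5 neuronal markers were lower. Of the endothelial markers 2 or 3 were higher. Of the oligodendrocyte markers 1 to 4 were higher and 0 or 1 lower. Astrocyte markers shifted most in direction, with 1 or 2 higher and 1 to 3 lower. With quantile normalization, with a correction for level and in the deposited values 1 astrocyte marker was higher and 3 were lower. The part these cells have in the differences below was not tested, and fewer cells of a type cannot be told apart from less RNA per cell.

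A probe was called measured where most of its usable spots were well above background, by the scanner software, on both arrays. Of 1359 members with a usable spot on both arrays, 601 were measured, which is 44.2%, against 65.2% of all probes, 72.2% of probes for RefSeq messenger RNAs and 77.4% of the clones named BC. Other kinds of non-coding probe varied. Of RefSeq non-coding transcripts named XR 63.2% were measured, of probes named MRAK 54.1% and of others named MR 53.3%. Of those named uc, the usual name of ultraconserved regions, 27.1% were measured. A further 386 members (28.4%) were well above background on the sevoflurane array only, where 18.2% of all usable probes and 35.2% of those named uc were. Another 17 (1.25%) were so on the control array only, where 1.61% of all probes were. The other 355 members, or 26.1%, were above background on neither array, against 15.0% of all probes. In all, 72.7% of members were above background in treated cells and 45.5% in control cells, beside 83.4% and 66.8% of all probes.

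Detection differed widely between runs of neighbouring accessions. Among usable members, 16 runs of at least 10 accessions, each within 20 numbers of the next, held 360 members, and they ranged from runs with every member measured to runs with none. In the run from AY724477 to AY724538 all 14 members were measured, with a median signal of 537 in treated cells and 1821 in control cells. The longest run, AJ286145 to AJ286316, had 73 members, of which 1 was measured, 32 were above background on the sevoflurane array only and 40 on neither. Its median signal was 9.50 in treated cells and 1.91 in control cells, the second of these at the level of the negative controls. Of the 49 members from AM293738 to AM293854 none was measured, 12 were above background on the sevoflurane array only and 37 on neither. Likewise 0 of 16 from AF217571 to AF217595 and 1 of 18 from Z93351 to Z93371 were measured. None of the 16 runs, sparse or not, held a member above background on the control array only. That state was rare everywhere, at 1.25% of all usable members and 1.61% of all usable probes.

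The same contrast showed in the letters of the accessions, of which there were 20 kinds. The kinds AJ, AM and Z, chosen here after their values were seen, had 32 of 233 usable members measured (13.7%), against 569 of 1126 (50.5%) for the other kinds. Among the other kinds with at least 60 usable members, 34 of 60 were measured for X, 49 of 87 for AB, 48 of 89 for U, 127 of 247 for AF, 131 of 260 for AY, 33 of 72 for S, 27 of 69 for M and 25 of 72 for L. The 458 one-letter accessions, the older form, and the 906 with a pair of letters were measured about as often, at 43.2% and 44.7%.

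Among the 601 measured members, 331 were at least 2-fold higher with sevoflurane (55.1%), beside 32.8% of all measured probes. Another 50 were at least 2-fold lower (8.32%), beside 12.3% of all measured probes, and 220 lay within 2-fold. The median difference was 1.19 for members and 0.36 for all 16047 measured probes. The middle range of the members ran from 0.12 to 2.04, and their extremes were -4.05 and 8.67. By a 4-fold rule 156 members were higher (26.0%, all probes 13.9%) and 11 were lower (1.83%, all probes 2.91%). A member had to be above background on both arrays to enter these counts.

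This split depended on how the arrays were scaled. Of the members past 2-fold, 86.9% were higher with the upper-quartile scaling, 53.0% after quantile normalization (134 higher, 119 lower), 49.5% after scaling to the median (143 higher, 146 lower), 61.9% after a correction for level (153 higher, 94 lower) and 54.2% in the deposited value table (135 higher, 114 lower). The median over all measured probes moved with it, from 0.36 to -0.10, -0.73, 0.00 and -0.10 in the same order. The median of the members lay above that of all probes by 0.84 in upper-quartile scaling. Median scaling and the percentile over detected probes shift all probes alike, so they cannot change this gap. Among the settings that can, the gap was 0.28 with quantile normalization, 0.30 in the deposited values and 0.32 with the correction for level. With a model-based background correction (normexp) it was 0.52, and with flagged spots kept 0.83. In quantile-normalized values 22.3% of members and 15.6% of all probes were at least 2-fold higher, and 19.8% of members and 21.6% of all probes at least 2-fold lower. With median scaling 23.8% of members and 12.5% of all probes were higher, and 24.3% of members and 41.0% of all probes lower. With the correction for level the shares were 25.5% and 17.0% higher, and 15.6% and 17.5% lower. In the deposited values they were 22.5% and 15.6% higher, and 19.0% and 21.2% lower. No replicate allows a test of these gaps.

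The size of the difference went with the level of the probe, and members sat low. When all measured probes were put in 10 equal groups by mean level, 318 members (52.9%) fell in the 3 dimmest groups and 77 (12.8%) in the 3 brightest. In the 3 dimmest groups 233 of 318 members were at least 2-fold higher (73.3%), beside 63.0% of all probes there, and 7 were lower (2.20%), beside 4.01%. In the 4 middle groups 79 of 206 members were higher (38.3%), beside 25.5%, and 28 were lower (13.6%), beside 16.7%. In the 3 brightest groups 19 of 77 were higher (24.7%), beside 12.4%, and 15 were lower (19.5%), beside 14.5%. The median difference of members was 1.69, 0.55 and 0.04 in these dim, middle and bright parts, and that of all probes 1.44, 0.14 and -0.06.

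Had members followed the shares of all probes at their own levels, 45.3% would have been at least 2-fold higher and 9.32% lower, against 55.1% and 8.32% observed. Low level thus goes with a part of the distance between the members and the whole array. The same reckoning gave other distances for other kinds of probe: 60.4% observed and 33.3% at their levels for RefSeq non-coding transcripts named XR, and 23.7% observed and 30.4% at their levels for the clones named BC. Probes named uc had 60.4% observed and 51.7% at their levels, those named MRAK 35.3% and 40.5%, and others named MR 41.8% and 40.1%. Messenger RNA probes had 28.0% observed and 30.2% at their levels. The members lay between the XR transcripts and the messenger RNAs in this respect, and none of these distances could be tested.

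The accession kinds with at least 10 measured members, 12 in all, had medians of 0.64 (DQ) to 1.70 (L) in upper-quartile scaling, all above the 0.36 of all probes. The kinds most often higher by 2-fold were L (18 of 25, 72.0%) and X (22 of 34, 64.7%), with AB (63.3%) and M (63.0%) close to X. Those least often higher were U (20 of 48, 41.7%) and DQ (15 of 35, 42.9%). The share was 55.1% over all measured members and 32.8% over all measured probes, so even U and DQ lay above the array as a whole. Relative to the upper quartile of the array, the median level was -4.02 for L, -2.52 for X, -1.58 for U and -3.37 for DQ, so the kinds more often higher were not in each case the dimmer ones. One-letter and two-letter accessions had medians of 1.21 and 1.19.

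For a smaller set of members the call held in every setting. Median scaling and the percentile over detected probes shift all differences by a constant, so this is partly a stricter limit, and an unequal one. In upper-quartile scaling the members that passed had differences of at least 2.09 upward and of at most -1.14 downward. By the main setting and the 7 others alike, 92 of the 601 measured members were at least 2-fold higher with sevoflurane (15.3%), beside 9.00% of all measured probes, and 27 were at least 2-fold lower (4.49%), beside 7.30%. The same shares were 16.9% higher and 1.77% lower for XR transcripts, 7.53% and 7.11% for messenger RNAs, and 6.18% and 8.30% for the clones named BC. Probes named uc had 22.7% and 2.31%, those named MRAK 9.55% and 12.4%, and others named MR 11.5% and 8.97%. The 92 higher members had a median difference of 2.91 and were mostly dim: 62 lay in the 3 dimmest level groups, 26 in the middle and 4 in the brightest. Their median signal was 93.6 in treated cells and 24.8 in control cells. The 27 lower members had a median difference of -1.46 and were rarely dim, with 1 in the dimmest groups, 14 in the middle and 12 in the brightest. Their median signal was 255 in treated cells and 2184 in control cells. At 4-fold in every setting there were 20 higher members (3.33%, all probes 2.36%) and 5 lower ones (0.832%, all probes 1.51%).

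At the far end, 13 members were at least 16-fold higher with sevoflurane (2.16%, all probes 1.31%) and 8 at least 64-fold higher (1.33%, all probes 0.449%). None was 64-fold lower, and 1 was 16-fold lower. The largest differences below were chosen by size among the brighter part of the measured members (301 members by mean level), so their size is a description of the 2 arrays.

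EF673689 had a signal of 3558 in treated cells and 16.7 in control cells, a difference of 8.67. Its spots ran from 3416 to 3654 in treated cells and from 15.4 to 17.5 in control cells. AB190509 had 7053 in treated cells and 33.2 in control cells, a difference of 8.66. These were the highest members, at places 11 and 12 among all 16047 measured probes, and both were bright in treated cells and had low signals in control cells, where the lowest signal called well above background was 7.22.

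DQ266361 was the brightest of the high members, with a signal of 17549 in treated cells and 210 in control cells, a difference of 7.32. AY240867 had 7572 in treated cells and 75.8 in control cells, a difference of 7.57. D30781 had 1781 and 16.7 in the same order, a difference of 7.67. For each of these the dimmest spot in treated cells lay far above the brightest in control cells.

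AF199337 had 1019 in treated cells and 10.1 in control cells, a difference of 7.59, but its control spots were the most uneven of this group, at 7.74 to 13.9. AY245000 had 2699 in treated cells and 29.7 in control cells (7.44), and U20303 had 2785 and 62.1 in the same order (6.42). AF352178 had 3579 and 137 (5.64), and AF352021 had 644 and 30.5 (5.33). These 10 members were at least 2-fold higher in each of the 7 alternatives too, with values between 3.80 and 8.80. The smallest value came from normexp, a model-based background correction that adds an offset to every signal, for 6 of them and from median scaling for the other 4.

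Of the lower members, AY539885 differed most, with a signal of 250 in treated cells and 7890 in control cells, a difference of -4.05. Its spots ran from 247 to 252 in treated cells and from 7686 to 8191 in control cells. AF494463 had 369 in treated cells and 9756 in control cells, a difference of -3.79. Their treated signals were still above the median of 51.9 over all probes of that array, and they were at places 11 and 25 from the bottom of all measured probes.

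EU563850 had 144 in treated cells and 2184 in control cells (-3.0), U70268 had 202 and 2679 in the same order (-2.80), and M81184 had 147 and 1639 (-2.55). S74320 had 16.4 in treated cells and 272 in control cells (-3.12), and DQ266367 had 33.6 and 476 (-2.89). AF073379 had 22.4 and 266 (-2.64), X78689 had 93.9 and 848 (-2.24), and AY035551 had 400.2 and 3385 (-2.15). These 10 stayed at least 2-fold lower in each of the 7 alternatives, between -5.14 and -1.15. For S74320 and AF073379, whose sevoflurane signals were low, the value depended most on the setting: -4.74 and -3.91 with quantile normalization, -1.36 and -1.15 with normexp.

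Several of these members had measured neighbours in accession number, which mostly differed far less. AY245000 and the next accession, AY245001, had the same signal on the sevoflurane array, 2699 each, whereas the control array gave 29.7 for AY245000 and 2817 for AY245001. In the run EF673688 to EF673694 the other 4 measured members had differences of -0.83 to 2.93, against 8.67 for EF673689. Beside AB190509, the other 4 measured members from AB190502 on had -0.27 to 1.19.

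The run DQ266361 to DQ266367 held differences in both directions. DQ266361 was at 7.32 and DQ266367 at -2.89, with DQ266362 at 0.42 and DQ266363 at 0.55 between them. AY539885, the lowest member, belonged to a run of 12 measured members of which 9 were at least 2-fold higher and 1, AY539885 itself, was lower, with a median of 1.53. In the run U70267 to U70270, U70268 had -2.80 and the other 3 had -0.58 to 1.24. S74320 came from a run of 7 with differences up to 2.10.

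Over all 57 pairs of measured members with consecutive numbers, the median gap between the differences of the pair was 1.35 log2 units, and over all pairs of measured members it was 1.33. In the run AY325132 to AY325260, 9 of 11 measured members were at least 2-fold higher and none was lower, with a median of 2.06 and a highest value of 4.11. In AY387047 to AY387098 it was 7 of 9, with a median of 2.08, and in AY724477 to AY724538 it was 1 of 14 higher and 4 lower, with a median of -0.39. The first 2 of these runs were dim, with median signals of 17.3 and 22.4 on the sevoflurane array and 3.0 and 5.52 on the control array over their usable members, and the third was bright. Among all measured probes of the 3 dimmest level groups 63.0% were at least 2-fold higher. The medians of the runs also cover members that were not measured, and some measured ones were brighter. AY325176, for example, had 2140 in treated cells and 1713 in control cells, and AY387074 had 248 and 311. The counts of the runs were not set against probes of the same levels.

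The 5 brightest members by mean level differed little beside those above. AY383714 had 18728 in treated cells and 13622 in control cells, a difference of 1.39. AY390380 had 12505 in treated cells and 18207 in control cells (0.39), and AB072253 had 8659 and 13000.2 in the same order (0.34). AB262979 had 9085 and 8102 (1.1), and AF504920 had 9017 and 7970 (1.11). AY383714, AB262979 and AF504920 passed 2-fold in upper-quartile scaling, and quantile normalization took all 5 below it, at -0.24 to 0.85, so no change of 2-fold can be stated for the brightest members.

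Members close to the limit show how little separates the counted from the uncounted. Just past 2-fold higher were AB190259 (1.0), with 18.7 in treated cells and 17.8 in control cells, and L25865 (1.01), with 23.2 and 21.9. Just short of it were S74340 (0.995), with 22.4 and 21.4, and AY539892 (0.99), with 115 and 110. All 4 had nearly equal signals on the arrays and passed or missed the limit through the scaling, and S74340 had spots from 17.3 to 29.0 on the sevoflurane array. S74340 moved to 1.97 with flagged spots kept and to -0.92 with quantile normalization. In the other direction Z11994 (71.0 on the sevoflurane array, 271 on the control array) and AM180763 (308 and 1185) lay just past 2-fold lower at -1.0 and -1.01, and AF202265 (453 and 1724) and AY136826 (815 and 3068) just short of it at -0.997 and -0.98.

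Where a member was well above background on 1 array only, a lower bound of the fold was taken from its bright signal and the higher of its own dim signal and the lowest signal well above background on the dim array (6.88 on the sevoflurane array, 7.22 on the control array). M62483 had 2319 in treated cells and 3.52 in control cells, at least 612-fold higher. AB075604 had 1502 in treated cells and 8.28 in control cells, at least 346-fold higher, and FJ404473 had 220.3 and 2.34 in the same order, at least 58.1-fold higher. These bounds are of the size of the largest differences among measured members, so the highest values with sevoflurane also include members that the control array did not detect.

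Bounds in the other direction were smaller. AB089205 had 9.44 in treated cells and 129 in control cells, at least 7.18-fold lower. AF199336 had 4.45 and 39.4 (at least 3.0-fold lower), and L26293 had 11.6 and 62.7 (at least 2.85-fold lower). AF199336 is the accession before AF199337, described above with a difference of 7.59, so this neighbouring pair went opposite ways.

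All 386 members detected on the sevoflurane array only had a bound of at least 2-fold, and 9 of at least 16-fold, while 4 of the 17 detected on the control array only had a bound of at least 2-fold and 8 had none above 1. Their bright signals were alike, with medians of 19.0 in treated cells and 18.2 in control cells. The unequal counts of bounds past 2-fold follow in part from the scaling. A bound of 2-fold needs a signal of at least 7.58 on the sevoflurane array but of at least 26.2 on the control array. The first lies close to 6.88, the lowest signal called well above background on that array. That all 386 had a bound of at least 2-fold was therefore nearly fixed in advance and is no result about the members. The detection calls themselves do not depend on the scaling. The same counts of bounds over all probes were not computed.

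Spots of a probe agreed closely. Over measured members with at least 3 usable spots, the median SD between spots was 0.10 log2 units with sevoflurane (566 members) and 0.08 in the control (568 members). Among those with 3 spots on both arrays, the scaled spots of the arrays did not overlap for 93.8% of members, beside 92.8% of all measured probes printed and usable in the same way. They did not overlap for any of the 298 members at least 2-fold higher or the 42 at least 2-fold lower, nor for 162 of 195 members within 2-fold. A gap of 2-fold is large beside the spread between spots, so for members past it this was nearly fixed by their selection. The spread between spots is technical and leaves out differences between cultures, which these arrays cannot show.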

How the data were processed

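Total RNA of 1 sevoflurane and 1 control sample was hybridised to Agilent 1-colour arrays. Per the file headers, the deposited scanner files come from Agilent Feature Extraction 11.0.1.1 and give linear spot intensity, background-corrected but not scaled between arrays. The deposited value table was read as log2 values because its members correlated with the log2 scanner signals at 0.981 (sevoflurane) and 0.991 (control). Its columns had medians of 5.61 (sevoflurane) and 5.60 (control), and how the authors scaled or centred it stays unknown. Control spots and spots flagged as non-uniform or population outliers were left out (521 of 42136 with sevoflurane, 580 in the control). The log2 processed signal was averaged per probe and the 75th percentile over usable probes subtracted. No spot was saturated. Alternatives used lowess (span 0.4, statsmodels 0.14.6) and normexp (offset 50, limma 3.58.1), the second on median spot signals because mean signals are not in the files used here. With 1 array per group, depth and error between samples are unknown, and the number of arrays limits the precision.

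Named members are the 10 highest and 10 lowest differences in the brighter part of measured members, the 5 brightest, the 3 strongest bounds each way, and the 2 just inside and 2 just outside 2-fold each way; rules for probes sharing an accession or named in the gene table found none. Neighbouring accessions (gaps up to 20) were looked at after seeing the data. Members, lists and rules were chosen with earlier results of these data known. Scripts were tested on simulated data.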

Additional observations from a re-analysis of the deposited data

How the results depend on the processing

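Beside 331 of 601 members at least 2-fold higher, the counts were 134 with quantile normalization and 143 with median scaling. They were 153 with the correction for level, 135 in the deposited values and 156 by a 4-fold rule. In the brighter part alone the count was 113 of 301 members (37.5%). With no filter on dim members it was 1063 of 1359 (78.2%), which takes in members not measured on both arrays. For the brighter part and the unfiltered members no share of all probes is given to set beside these. The 50 lower members became 119 with quantile normalization, 146 with median scaling, 94 with the correction for level and 114 in the deposited values. They became 33 with normexp and 11 by the 4-fold rule. The median difference of 1.19 moved to 0.18 with quantile normalization, 0.11 with median scaling, 0.32 with the correction for level and 0.20 in the deposited values. It moved to 0.96 with normexp, to 0.50 in the brighter part and to 2.27 without a filter. Keeping flagged spots or taking the percentile over detected probes changed no count by over 1.5 times. Requiring every usable spot above background turned the 17 members detected on the control array only into 26. AB190259 turned to -1.16 with quantile normalization, -0.085 with median scaling, -0.66 with the correction for level and -1.13 in the deposited values, and L25865 to -0.87, -0.072, -0.52 and -0.91. S74340, just short of the rule at 0.995, had -0.92, -0.091, -0.56 and 0.55 under these and 1.97 with flagged spots kept. By construction fewer members enter the brighter part and the 4-fold rule, and more enter without the filter. Median scaling and the percentile over detected probes shift all differences by a constant, so their counts follow from that shift. For the other settings the cause was not tested. Signals near background limit what dim members can show. No paired analysis was possible because each group has 1 array.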
